A study of Mus musculus with 15 samples.

Results

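The genes described here are the orphan receptors with a numbered Gpr symbol and the adhesion G protein-coupled receptors with an Adgr symbol, followed in microglia of a mouse model of Alzheimer's disease. They were chosen by symbol and by a minimum of 30 reads summed over the 15 libraries. The rule does not compare the groups, but a gene with few reads can reach the minimum through a single group. The symbol pattern fitted 101 protein-coding genes among the 36528 gene identifiers of the deposited tables. Of these, 66 reached the minimum, 46 with a Gpr symbol and 20 with an Adgr symbol. The members just inside the minimum were Gpr135 and Gpr3 with 35 reads each, Adgrf4 and Gpr171 with 31 each and Gpr12 with 30. Just outside it were Gpr173 with 29 reads, Gpr176 with 25 and Gpr179 with 24.

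All libraries came from total RNA of GFP-positive cells sorted from mouse cortex, where GFP was expressed from Cx3cr1, a gene of microglia and of other myeloid cells. The PS2APP group, from mice that carry transgenes for mutant human presenilin 2 and amyloid precursor protein, had 9 libraries, 4 at 14 months of age and 5 at 15 months. The non-Tg group, wild-type for those transgenes, had 6 libraries, 2 at 14 months and 4 at 15 months. Both groups carried the Cx3cr1 reporter, and the labels do not name the promoters of the transgenes. No label says that each library came from a separate mouse, so p-values measure the spread between these libraries, which may be in part technical.

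G protein-coupled receptors thread through the membrane several times and pass a signal from an outside ligand to a heterotrimeric G protein, to arrestins or to both. Receptors are called orphans while no natural ligand is generally accepted, and many Gpr symbols stayed in use after a ligand was proposed. Adhesion receptors have a long outer part that binds matrix or partner proteins and is cut from the membrane part by the receptor itself. Microglia are known for high levels of a few receptors of these families, among them Gpr34, Adgrg1 and Adgre1.

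Libraries held between 3664742 and 8455237 reads assigned to genes, with a median of 5867848. The 12 markers of microglia were all tested and their summed level was 34334 to 46013 CPM (counts scaled to library size with TMM factors) in non-Tg and 26970 to 39427 CPM in PS2APP. On a score of mean log2 CPM they were lower in PS2APP by 0.25 (adjusted p = 0.028, exact permutation test over 5005 splits, two-sided, adjusted over 12 lists). The score of 11 tested neuron markers was lower in PS2APP by 1.23 (adjusted p = 0.0024, the same exact permutation test), and the groups did not overlap, with 3.55 to 4.30 in non-Tg and 1.61 to 3.43 in PS2APP. Their summed level was 290 to 594 CPM in non-Tg and 78.3 to 281 CPM in PS2APP over 14 listed markers, none of which was at 0 in all libraries. Only 2 of 8 oligodendrocyte precursor markers could be tested, and their score was higher in PS2APP by 1.89 (adjusted p = 0.0024, the same exact permutation test). It averaged 0.80 in non-Tg and 2.69 in PS2APP. The filter on low counts needs reads in only as many libraries as the smaller group has, so these markers may have passed through PS2APP. That p may then be set in part by the filter, and nothing is concluded from it. Scores of the other 9 lists did not pass, among them border macrophages with a difference of 0.09, astrocytes with 0.00 and endothelial cells with -0.01. No marker of neutrophils or of T and NK cells passed the filter on low counts. Non-Tg replicates 9 and 13 and PS2APP replicates 1 and 4 had high scores of immediate early genes, 7.32 to 9.55 against 3.30 to 4.20 in the other libraries. Xist, the RNA of the silenced X chromosome of females, stood at 16.6 to 46.8 CPM in non-Tg replicates 12 and 13 and PS2APP replicate 14 and at 3659 to 7183 CPM in the others.

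Sequence upstream of the start site is shown for Gpr65 and Adgrl1, the tested members that some alternative fits called, and for Adgrg1 and Gpr183, from a promoter table (RefSeq, GRCm38.p6) that covered 46 of the 66 members with 62 windows. Each line gives the 220 bases from 250 to 31 bases before an annotated start, 5′ to 3′ on the gene's strand. Capitals mark a match to one of the motifs searched.
Gpr65 (chr12:98268385-98268604, plus strand): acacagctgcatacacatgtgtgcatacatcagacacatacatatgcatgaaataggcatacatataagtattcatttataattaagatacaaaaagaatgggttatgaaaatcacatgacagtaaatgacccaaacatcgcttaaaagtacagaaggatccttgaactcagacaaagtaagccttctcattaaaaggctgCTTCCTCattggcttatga
Adgrl1 (chr8:83899848-83900067, plus strand): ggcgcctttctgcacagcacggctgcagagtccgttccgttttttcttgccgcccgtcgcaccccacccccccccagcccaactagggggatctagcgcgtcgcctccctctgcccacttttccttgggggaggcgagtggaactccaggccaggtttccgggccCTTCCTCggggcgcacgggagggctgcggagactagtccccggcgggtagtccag
Adgrg1, the downstream of 2 starts (chr8:94984149-94984368, plus strand): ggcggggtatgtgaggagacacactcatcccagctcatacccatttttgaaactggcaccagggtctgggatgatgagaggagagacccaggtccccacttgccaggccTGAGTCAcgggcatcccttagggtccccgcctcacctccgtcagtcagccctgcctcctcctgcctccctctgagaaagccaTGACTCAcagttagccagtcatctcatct
Gpr183 (chr14:121965224-121965443, minus strand): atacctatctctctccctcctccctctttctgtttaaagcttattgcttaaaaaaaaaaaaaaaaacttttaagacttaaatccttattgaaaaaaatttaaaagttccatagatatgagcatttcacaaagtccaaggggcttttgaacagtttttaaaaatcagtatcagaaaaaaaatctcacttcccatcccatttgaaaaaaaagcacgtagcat

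The Gpr65 window holds the core GAGGAAG, known as the site of the myeloid factor PU.1, read on the opposite strand and starting 49 bases before the start, and the Adgrl1 window holds it on that strand 85 bases before the start. The Adgrg1 window shown, that of the downstream start, holds the AP-1 letters TGANTCA at 141 and at 59 bases before the start. The window of the upstream Adgrg1 start, not printed, holds none of the motifs searched. None of the motifs searched lies in the Gpr183 window. Over the 250 bases before each start and on both strands, the PU.1 core was in 7 of 62 member windows (11.3%) against 10.6% of 32851 windows of all genes. The AP-1 letters were in 4 member windows (6.45%) against 6.75%, and the letters of the interferon-stimulated response element in 3 (4.84%) against 2.98%. The E-box CACGTG and the cyclic AMP element TGACGTCA were in 0 member windows, against 6.02% and 1.55% of all windows. The shares for the PU.1 core and for the AP-1 letters in member windows thus lay within 1 percentage point of those of all genes.

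Levels spanned a wide range, and a few members held most of the reads. On the deposited nRPKM scale, which divides by gene length and library size, 6 members averaged at least 10 in non-Tg, 19 lay from 1 to 10, 20 from 0.1 to 1 and 21 under 0.1. Gpr34, a receptor for lysophosphatidylserine, stood at 201 ± 40.3 nRPKM in non-Tg (SD, n = 6), 39th among all genes. Next came Adgrg1, an adhesion receptor that binds collagen III and transglutaminase 2, at 55.5 ± 10.9 nRPKM and Adgre1, the F4/80 antigen of macrophages, at 40.6 ± 9.30 nRPKM. Gpr84, a receptor for medium-chain fatty acids, stood at 28.8 ± 10.7 nRPKM, and Gpr183, a receptor for oxysterols, at 24.7 ± 3.51 nRPKM. The sixth was Gpr155, a cholesterol sensor of the lysosome membrane, at 21.8 ± 3.49 nRPKM. Gpr34 alone held 37.9% of the 445348 member reads and these 6 genes 83.9%. Within single non-Tg libraries, Gpr34 was above Adgrg1, Adgrg1 above Adgre1 and Gpr183 above Gpr155 in 6 of 6. Adgre1 was above Gpr84 in 4 of 6 and Gpr84 above Gpr183 in 3 of 6, so the place of Gpr84 in the order differed between libraries.

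**Figure D1:**
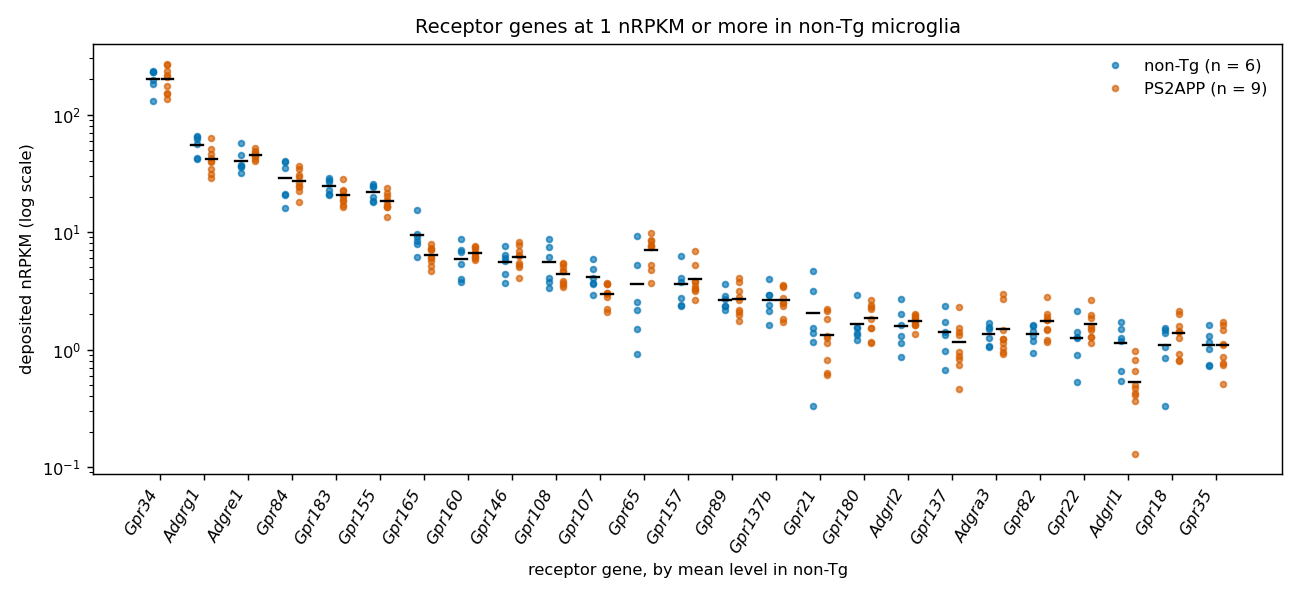
Deposited nRPKM (vertical, log scale) of the 25 members with a non-Tg mean of at least 1, ordered by that mean; each point is a library, blue for non-Tg (n = 6) and orange for PS2APP (n = 9), and black lines are group means. The groups overlap for each gene, with Gpr34 near 201 nRPKM in both groups and Gpr65 at 0.913 to 9.17 nRPKM in non-Tg.

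The summed share of the 66 members was 0.544% ± 0.0457 of all reads in non-Tg (SD, n = 6) and 0.512% ± 0.0406 in PS2APP (n = 9). Immune and lipid-sensing receptors made up 51.5% ± 5.05 of member reads in non-Tg and 54.0% ± 4.98 in PS2APP. Myeloid and lymphoid adhesion receptors made up 29.8% ± 4.27 and 28.0% ± 4.17, and proteins of internal membranes 12.9% ± 0.653 and 11.8% ± 1.37. Proton-sensing receptors held 0.653% ± 0.326 in non-Tg and 1.29% ± 0.288 in PS2APP. The 24 neural orphan receptors together held 1.31% ± 0.438 and 1.302% ± 0.168, and the 7 synaptic and neural adhesion receptors 1.81% ± 0.419 and 1.47% ± 0.346.

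The comparison of PS2APP with non-Tg asks whether receptor levels differ in microglia of the amyloid model. Of the 66 members 42 passed the filter on low counts and were tested, and 0 were called in either direction at an adjusted p under 0.05 (edgeR quasi-likelihood test with age as covariate, Benjamini-Hochberg over 13994 genes), where 1.18% of all genes tested were called. At an unadjusted p under 0.05 there were 7 members, 2 higher (Gpr65, Gpr162) and 5 lower (among them Adgrl1, Gpr165, Gpr107 and Adgrg1), against 11.7% of all genes. That is 16.7% of the members tested. In 0 members did the groups fail to overlap in CPM, against 0.636% of all genes. The median log2 fold change was 0.02 over the members, with 22 above 0 and 20 below, and -0.02 over all genes tested. For 30 of the 42 it lay within 0.5 of 0. DESeq2 called 1 member (Adgrl1) and limma-voom called 1 (Gpr65), where they called 2.79% and 1.43% of all genes. In bulk RNA, fewer cells of a type and less RNA per cell cannot be told apart.

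**Figure D2:**
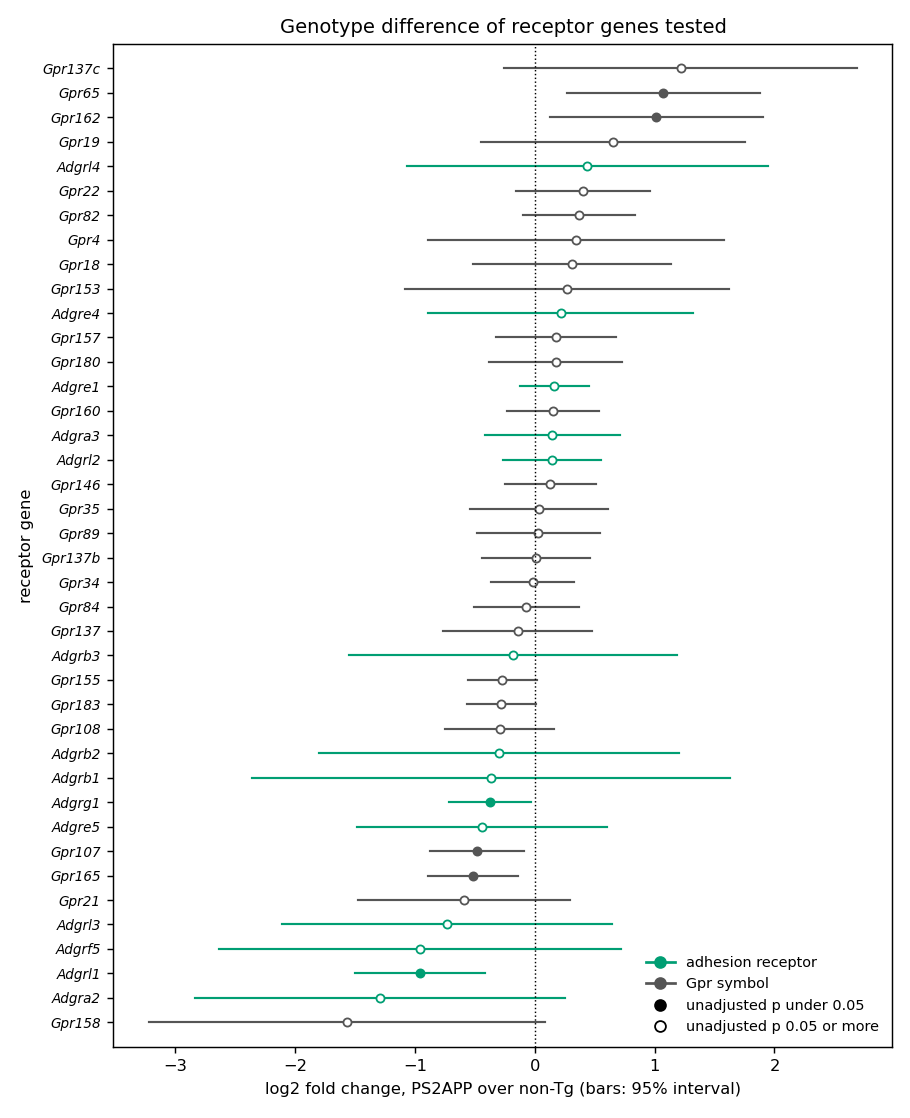
Log2 fold change of PS2APP over non-Tg (horizontal) with its 95% interval for 40 of the 42 members tested, ordered by size; green marks adhesion receptors and grey Gpr symbols, and filled points have an unadjusted p under 0.05. Estimates run from -1.57 for Gpr158 to 1.22 for Gpr137c, and the intervals of low genes are several times wider than that of Gpr34 (-0.37 to 0.33).

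Among immune and lipid-sensing receptors, 0 of 9 tested members were called and their median log2 fold change was 0.03. Gpr34 ran from 132 over a median of 213 to 235 nRPKM in non-Tg and from 136 over 207 to 272 nRPKM in PS2APP. The groups overlapped almost entirely, and the log2 fold change was -0.02 ± 0.17 (SE; adjusted p = 0.983, edgeR), with a 95% interval from 0.776-fold to 1.26-fold. A difference inside that interval cannot be told from none with these libraries, and the sign turned positive without scaling factors (0.0090). Gpr84 ran from 16.01 over 28.2 to 40.4 nRPKM in non-Tg and from 17.9 over 26.0 to 36.7 nRPKM in PS2APP. The non-Tg libraries spanned a wider range than the PS2APP libraries, with 3 at 35.3 to 40.4 and 3 at 16.01 to 21.2. Its log2 fold change was -0.07 ± 0.21 (adjusted p = 0.942, edgeR; interval -0.51 to 0.37). Gpr84 exons overlap the antisense gene Gm49482, and since the strand setting of the counting is not given, reads of such pairs cannot be told apart.

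Gpr183 ran from 20.8 over 24.8 to 28.9 nRPKM in non-Tg and from 16.4 over 19.8 to 28.5 nRPKM in PS2APP. In PS2APP 8 of 9 libraries were below the non-Tg median and 5 below the lowest non-Tg library, but PS2APP replicate 8 was near the top of the non-Tg range. The log2 fold change was -0.28 ± 0.14 (adjusted p = 0.438, edgeR; interval -0.57 to 0.01). Gpr165 ran from 6.11 over 8.75 to 15.4 nRPKM in non-Tg and from 4.68 over 6.10 to 7.88 nRPKM in PS2APP. All 9 PS2APP libraries were below the non-Tg median and the highest value was that of non-Tg replicate 2. The log2 fold change was -0.52 ± 0.18 (adjusted p = 0.212, edgeR; interval -0.89 to -0.14). Gpr160 at 5.91 ± 1.90 and 6.62 ± 0.677 nRPKM and Gpr146, which in liver is known to act on plasma cholesterol, at 5.61 ± 1.40 and 6.15 ± 1.36 nRPKM, had log2 fold changes of 0.15 and 0.13. Gpr82, Gpr18 and Gpr35, the last a receptor linked to kynurenic acid, lay between 1.09 and 1.34 nRPKM in non-Tg, with log2 fold changes of 0.37, 0.31 and 0.03.

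Proton-sensing receptors signal when the fluid outside the cell turns acid. Gpr65, which acts through cyclic AMP in myeloid and lymphoid cells, had the largest positive estimate among members above 1 nRPKM. It stood at 0.913, 1.49, 2.16, 2.55, 5.23 and 9.17 nRPKM in the non-Tg libraries, and in PS2APP it ran from 3.72 over 7.63 to 9.73 nRPKM. All 9 PS2APP libraries were above the non-Tg median of 2.36, while non-Tg replicate 11 at 9.17 was higher than 8 of them. The log2 fold change was 1.07 ± 0.39, 2.10-fold (adjusted p = 0.231, edgeR; interval 0.27 to 1.88). Without non-Tg replicate 11 it was 1.52 (adjusted p = 0.0212, edgeR), the 1 member called in that fit against 1.3% of all genes. At 14 months alone, with 4 against 2 libraries, it was 2.04 (adjusted p = 0.027, edgeR), the 1 member called against 0.338% of all genes, whereas at 15 months alone it was 0.59 (adjusted p = 0.675, edgeR). The limma-voom fit with quality weights gave 1.91 (adjusted p = 0.0043) and a fit of all genes with no count filter gave 1.08 (adjusted p = 9.6e-04, edgeR). Gpr65 exons overlap the antisense gene Gm47566, to which the same limit applies. Gpr4, a receptor known from endothelial cells, stood at 0.194 ± 0.129 nRPKM in non-Tg and 0.253 ± 0.110 in PS2APP (log2 fold change 0.35, adjusted p = 0.884, edgeR).

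Of the myeloid and lymphoid adhesion receptors 0 of 4 tested members were called, with a median log2 fold change of -0.11. Adgrg1 ran from 41.97 over 59.0 to 66.0 nRPKM in non-Tg and from 28.8 over 40.3 to 62.6 nRPKM in PS2APP. In PS2APP 8 of 9 libraries were below the non-Tg median and 5 below the lowest non-Tg library; PS2APP replicate 1 at 62.6 was among the high non-Tg values. The log2 fold change was -0.38 ± 0.16 (adjusted p = 0.362, edgeR; interval -0.72 to -0.03), and without the 4 libraries with high immediate early gene scores it was -0.65 (adjusted p = 0.0704, edgeR). Adgre1 ran from 31.7 over 36.7 to 57.4 nRPKM in non-Tg and from 40.2 over 45.3 to 51.5 nRPKM in PS2APP. All 9 PS2APP libraries were above the non-Tg median but inside the non-Tg range, and the log2 fold change was 0.16 ± 0.14 (adjusted p = 0.706, edgeR; interval -0.12 to 0.45). Adgre5, known as CD97, and Adgre4 were much lower, at 0.659 ± 0.472 and 0.455 ± 0.369 nRPKM in non-Tg and 0.465 ± 0.362 and 0.528 ± 0.219 in PS2APP. Both varied several-fold between libraries of a group, and their log2 fold changes of -0.44 and 0.21 had standard errors above 0.5.

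The fifth receptor of that group, Adgrg5, did not pass the count filter and is named after its values were seen. It had 0 reads in the 6 non-Tg libraries and 47 in PS2APP, of which PS2APP replicate 15 held 23, replicate 8 held 16 and replicates 3, 4, 7 and 10 between 1 and 3. Set against a floor of 3 reads over the non-Tg group, the level pooled over the PS2APP libraries was 12.1-fold higher. In PS2APP 3 of the 9 libraries were at 0. Pooling leaves out the spread between libraries, which was larger than counting noise, so this fold is not a lower bound. Adgrg5 reached the read minimum through PS2APP alone, so no support for a difference is drawn from its values. In the fit with no count filter Adgrg5 was called together with Adgrl1 and Gpr65, where 2.5% of the 25970 genes in that fit were called. Most of its reads thus came from 2 libraries.

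Among the synaptic and neural adhesion receptors, 0 of 6 tested members were called, 5 had a negative estimate and the median log2 fold change was -0.33. Adgrl1, latrophilin 1, is a receptor of nerve terminals that binds teneurins. It ran from 0.538 over 1.22 to 1.70 nRPKM in non-Tg and from 0.128 over 0.474 to 0.973 nRPKM in PS2APP. All 9 PS2APP libraries were below the non-Tg median and 6 below the lowest non-Tg library, with PS2APP replicate 8 lowest and PS2APP replicate 14 highest of its group. The log2 fold change was -0.96 ± 0.26, 1.95-fold lower, with the smallest p of all members (adjusted p = 0.0847, edgeR; interval -1.50 to -0.42). DESeq2 gave -0.97 (adjusted p = 0.0172), limma-voom -0.98 (adjusted p = 0.0555) and the fit with no count filter -0.95 (adjusted p = 0.0264, edgeR). The neuron marker score was also lower in PS2APP, lowest of all in replicate 8 at 1.61. Whether Adgrl1 followed that score within a group was not tested. In PS2APP, replicate 8 was lowest in both, replicate 4 had the highest score (3.43) with Adgrl1 at 11.9 CPM, and replicate 14 had the highest Adgrl1 (32.2 CPM) at a score of 2.75. With the neuron marker score as a covariate the Adgrl1 estimate was -0.30 ± 0.43 (adjusted p = 1.0, edgeR). Since the score does not overlap between the groups, it and the genotype cannot be told apart. Adgrl1 exons also overlap the antisense genes Gm44450, Gm44330 and Gm10644.

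Adgrl2, latrophilin 2, stood higher than Adgrl1 in this group, at 1.6 ± 0.654 nRPKM in non-Tg and 1.75 ± 0.199 in PS2APP (log2 fold change 0.14, adjusted p = 0.854, edgeR). Adgrb1, which binds phosphatidylserine on dying cells, ranged from 0.0151 to 0.521 nRPKM in non-Tg and from 0.00705 to 0.571 in PS2APP. Values that far apart within a group gave a log2 fold change of -0.37 ± 0.96. Adgrl3, Adgrb2 and Adgrb3, the last a receptor of C1q-like proteins, were under 0.3 nRPKM on average, with estimates of -0.73, -0.30 and -0.18 and adjusted p from 0.736 to 0.958 (edgeR).

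Proteins of internal membranes were all tested, and 0 of 8 were called, with a median log2 fold change of -0.07. Gpr107, a protein of the Golgi, ran from 2.89 over 3.85 to 5.92 nRPKM in non-Tg and from 2.07 over 3.01 to 3.66 nRPKM in PS2APP. All 9 PS2APP libraries were below the non-Tg median, and the log2 fold change was -0.48 ± 0.19 (adjusted p = 0.288, edgeR; interval -0.87 to -0.09). Its relative Gpr108 had 5.61 ± 2.23 and 4.40 ± 0.786 nRPKM (log2 fold change -0.29, adjusted p = 0.657, edgeR). Gpr155 ran from 17.9 over 22.04 to 25.6 nRPKM in non-Tg and from 13.5 over 17.5 to 23.5 nRPKM in PS2APP. Here 8 of 9 PS2APP libraries were below the non-Tg median, and the estimate was -0.27 ± 0.14 (log2, adjusted p = 0.467, edgeR; interval -0.56 to 0.02). Gpr89, Gpr137b and Gpr180 stood between 1.66 and 2.67 nRPKM in non-Tg and had log2 fold changes of 0.03, 0.01 and 0.17. Gpr137c, at 0.149 ± 0.160 and 0.292 ± 0.195 nRPKM, had the largest positive estimate of all members, 1.22 ± 0.71, and overlapping groups (adjusted p = 0.531, edgeR). Its non-Tg libraries held from 0 to 48 reads and could not have met the filter on low counts alone, so nothing is concluded from its estimate. Exons of Gpr155, Gpr89, Gpr137 and Gpr137c overlap genes on the other strand, Txndc16 for Gpr137c. The limit given for Gpr84 applies to them, and likewise to Adgre5, Adgrl3, Gpr158 and Adgra2.

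Of the 24 neural orphan receptors 7 passed the count filter and 0 of these were called. Gpr158, a neuronal receptor for glycine, stood at 0.176 ± 0.128 and 0.0584 ± 0.0553 nRPKM with all 9 PS2APP libraries below the non-Tg median, and its log2 fold change was -1.57 ± 0.80 (adjusted p = 0.458, edgeR). Gpr162 went the other way, from 0.122 over 0.239 to 0.397 nRPKM in non-Tg and from 0.236 over 0.449 to 1.12 nRPKM in PS2APP. In PS2APP 8 of 9 libraries were above the non-Tg median and 5 above the highest non-Tg library, with PS2APP replicate 1 highest. Its log2 fold change was 1.01 ± 0.43 (adjusted p = 0.34, edgeR; interval 0.12 to 1.91). With the neuron marker score as a covariate, which does not overlap between the groups, the estimates were -0.03 for Gpr158 and 0.91 ± 0.74 for Gpr162. No standard error is given for Gpr158 in that fit, since it would be formed from an estimate and an F statistic that are both near 0. The standard error of Gpr162 was larger than in the fit without the score, and for these genes too the score and the genotype cannot be told apart. Of the other tested members, Gpr19, Gpr22 and Gpr153 had log2 fold changes of 0.65, 0.40 and 0.27 and Gpr21 one of -0.59, none with an adjusted p under 0.605 (edgeR).

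**Figure D3:**
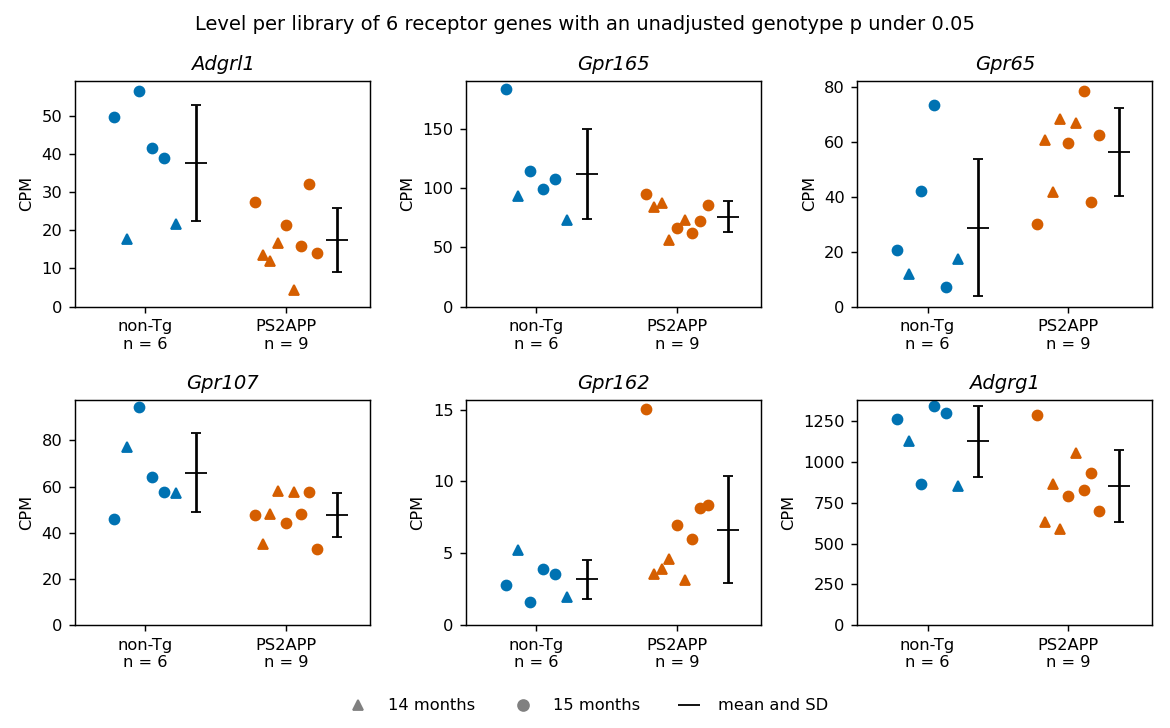
TMM-scaled CPM (vertical, from 0) of 6 members with an unadjusted p under 0.05, by library; triangles are 14 months and circles 15 months, blue is non-Tg (n = 6) and orange PS2APP (n = 9), and the black mark gives mean and SD. Each gene's groups overlap: Gpr65 in PS2APP lies between 30.1 and 78.6 CPM with non-Tg replicate 11 at 73.4, and Adgrl1 in PS2APP between 4.28 and 32.2 CPM against 17.7 to 56.5 in non-Tg.

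The vascular and epithelial adhesion receptors had 8 members, 4 of them tested and 0 called. Adgra3 was the highest, at 1.36 ± 0.270 nRPKM in non-Tg and 1.51 ± 0.762 in PS2APP, with a log2 fold change of 0.15. Adgra2, a receptor of brain endothelium that serves Wnt7 signalling, turned on 1 library. Non-Tg replicate 11 had 42.1 CPM and the other 5 non-Tg libraries 1.302 to 1.71 CPM, and the log2 fold change was -1.29 with it and 0.66 without it (adjusted p = 0.525 with it, edgeR). Adgrl4 and Adgrf5, both known from endothelium, stood at 0.175 ± 0.202 and 0.223 ± 0.214 nRPKM in non-Tg and 0.210 ± 0.230 and 0.105 ± 0.115 in PS2APP. Gpr157, which fits none of the groups, stood at 3.58 ± 1.48 and 3.95 ± 1.33 nRPKM with a log2 fold change of 0.18.

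The 24 members that did not pass the count filter had 30 to 139 reads over all 15 libraries. In 4 of them 1 library held over 50% of the reads, namely Adgrf3 (56 of 88 reads in non-Tg replicate 11), Gpr149 (48 of 57 in non-Tg replicate 9), Adgrg6 (29 of 50 in PS2APP replicate 15) and Gpr12 (21 of 30 in non-Tg replicate 12). These genes thus say more about single libraries than about a group. Gpr52, a receptor of striatal neurons, was more even, with 65 reads in 7 of the 9 PS2APP libraries and 13 reads in 4 of the 6 non-Tg libraries. Its levels were 0.308 ± 0.230 nRPKM in PS2APP and 0.0746 ± 0.0728 in non-Tg. The groups overlapped, since 2 PS2APP libraries had 0 reads. PS2APP replicates 6 and 8 had 4 reads each, against 5 in non-Tg replicate 13, the highest of its group. Gpr52 was named after its values were seen and reached the minimum of 30 reads through PS2APP, so no support for a difference is drawn from these values. Gpr37, known from oligodendrocytes, had 22 reads in 5 PS2APP libraries and 28 in 4 non-Tg libraries.

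Some members are neighbours in the genome (RefSeq, GRCm38.p6), and levels within such pairs were far apart in some and closer in others. Gpr34 (X, 13622650 to 13640859) and Gpr82 (X, 13646134 to 13667433) lie 5274 bases apart on the plus strand, both inside the body of Cask on the other strand. Gpr34 stood at 201 nRPKM in non-Tg, 150-fold above Gpr82 at 1.34, and Cask at 6.13. Gpr183 (14, 121952331 to 121965193) and Gpr18 (14, 121911434 to 121915888) lie 36442 bases apart inside Ubac2, which is on the other strand, and stood at 24.7, 1.10 and 3.95 nRPKM. Adgrg1 (8, 94974756 to 95014208) and Adgrg5 (8, 94921811 to 94943293), 31462 bases apart, stood at 55.5 nRPKM and at 0. Gpr108 and Adgre1, 109837 bases apart on chromosome 17, stood at 5.61 and 40.6 nRPKM. Adgre5 and Adgrl1, 158786 bases apart on chromosome 8, were closer in level, at 0.659 and 1.14 nRPKM. Adgrf4 and Adgrf2, whose loci overlap, were both near 0.01, at 0.0118 and 0.0109 nRPKM. These 2 levels rest on only 6 and 7 reads in non-Tg, so they cannot be ordered or called equal. Both genes had most of their reads in PS2APP, 25 and 36. Gpr22 lies inside Cog5 on the other strand (1.25 and 5.65 nRPKM) and Gpr21 inside Rabgap1 on the same strand (2.05 and 5.29 nRPKM). For members inside another gene, reads from introns of the host cannot be told apart from the receptor's own where they fall on its exons.

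Age was compared at 15 against 14 months with genotype in the fit. Of the 42 members 0 were called, as were 0% of all genes, and 0 with DESeq2 or limma-voom. An unadjusted p under 0.05 was found for 2 members, 4.76% of those tested, against 7.93% of all genes. Adgrl1 was higher at 15 months by a log2 fold change of 1.05 ± 0.27 (adjusted p = 0.539, edgeR) and Gpr137 by 0.82 ± 0.31 (adjusted p = 0.58, edgeR). Mean Adgrl1 levels were 0.595 nRPKM at 14 months and 1.41 at 15 months in non-Tg, and 0.351 and 0.669 in PS2APP. Both genotypes thus had the higher mean at 15 months, with 2 and 4 libraries in non-Tg and 4 and 5 in PS2APP.

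The genotype by age interaction called 0 of 42 members and 0% of all genes, and 0 members with DESeq2 or limma-voom. An unadjusted p under 0.05 was found for 6 members, 14.3% of those tested, against 7.41% of all genes. Among these the interaction was 0.85 for Adgrl2, 1.05 for Gpr22, 2.04 for Gpr19, -1.07 for Gpr108 and -4.15 for Adgrb1, with adjusted p of at least 0.641 (edgeR). For Gpr108 the non-Tg mean was 3.57 nRPKM at 14 months and 6.63 at 15 months, and the PS2APP mean 4.69 and 4.17. The Gpr65 interaction was -1.42 ± 0.72 (adjusted p = 0.675, edgeR). Its non-Tg mean was 1.83 nRPKM at 14 months and 4.47 at 15 months, and its PS2APP mean 7.43 and 6.71, so the smaller gap at 15 months came with a higher mean in the 4 non-Tg libraries of that age, replicate 11 among them.

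**Figure D4:**
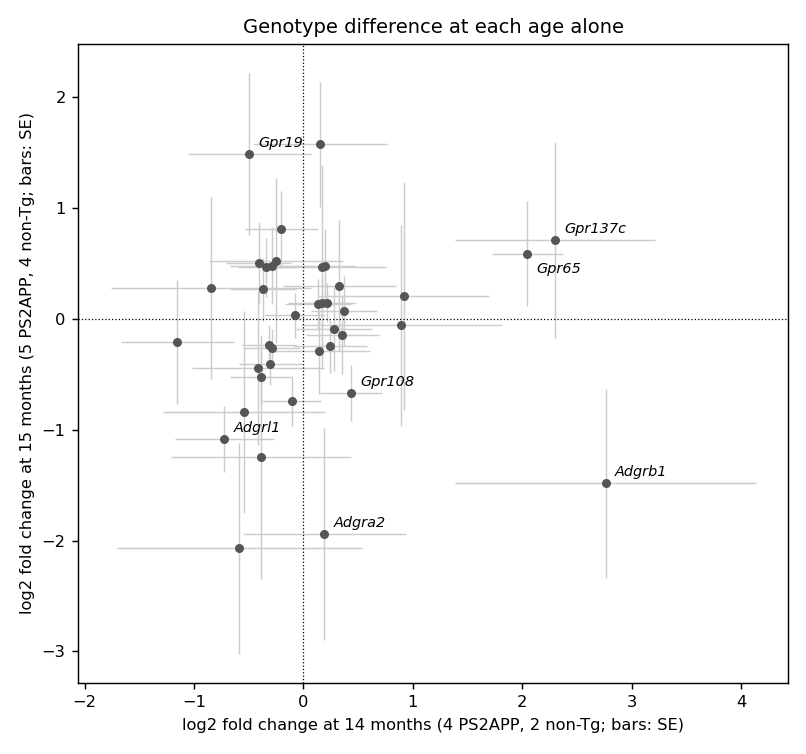
Log2 fold change of PS2APP over non-Tg at 14 months (horizontal; 4 against 2 libraries) and at 15 months (vertical; 5 against 4 libraries) for 39 of the 41 members fitted at both ages, with SE bars. Gpr65 is at 2.04 and 0.59, Adgrl1 at -0.72 and -1.09, and Adgrb1 has opposite signs with long bars.

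Genes that act with these receptors were taken from 6 lists. Among ligands and the enzymes that make them, 1 of 15 tested genes was called, where 1.18% of all genes tested were called. Ch25h, which makes the 25-hydroxycholesterol from which the Gpr183 ligand is built, stood at 1.69 ± 2.12 CPM in non-Tg (SD, n = 6) and 17.5 ± 7.36 CPM in PS2APP (n = 9). The lowest PS2APP library (8.597 CPM) was above the highest non-Tg library (5.86 CPM), and the log2 fold change was 3.44 ± 0.57, 10.8-fold (adjusted p = 0.0019, edgeR). Without non-Tg replicate 2 the estimate was 4.33, or 20.1-fold, and at 14 months alone 4.64, or 25.0-fold. Non-Tg levels began at 0.125 CPM, near the floor, so the size of these folds rests on few non-Tg reads and is uncertain. At such levels the 6 non-Tg libraries alone could not have met the filter on low counts, so Ch25h passed it through PS2APP. Its p and the lack of overlap may then be set in part by the filter, and no support for a difference is drawn from them. The call was lost at 15 months alone (2.95, adjusted p = 0.126, edgeR), without the 3 libraries low in Xist (3.16, adjusted p = 0.0543) and with the neuron marker score as a covariate (2.07, or 4.21-fold). Its receptor Gpr183 was not called, as given above. Tgm2, a ligand of Adgrg1, stood at 85.2 ± 20.6 CPM in non-Tg and 52.7 ± 11.3 CPM in PS2APP, with all 9 PS2APP libraries at or below the non-Tg median (log2 fold change -0.69 ± 0.18, adjusted p = 0.0756, edgeR). Tenm1, a teneurin and as such a partner of latrophilins, was low, at 2.67 ± 1.45 and 1.201 ± 1.11 CPM (adjusted p = 0.387, edgeR).

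Among receptor kinases and arrestins 1 of 11 was called, against the same 1.18% of all genes tested. Arrdc4, an arrestin-domain protein, rose from 12.6 ± 3.89 CPM in non-Tg to 28.7 ± 5.95 CPM in PS2APP, 2.31-fold (log2 fold change 1.21 ± 0.24, adjusted p = 0.0113, edgeR). The lowest PS2APP library (21.5 CPM) was above the highest non-Tg library (17.6 CPM). Groups that do not overlap in CPM, as for Arrdc4 and Ch25h, were found in 0.636% of all genes tested. The call was lost at 14 months alone (1.15, adjusted p = 0.185, edgeR), at 15 months alone (1.25, adjusted p = 0.172), without the 3 libraries low in Xist (1.35, adjusted p = 0.0543), with the neuron marker score as a covariate (1.17) and without the 4 libraries with high immediate early gene scores (1.003, adjusted p = 0.0751). Arrdc3 had 257 ± 406 CPM in non-Tg and 71.4 ± 34.8 CPM in PS2APP (log2 fold change -1.47, adjusted p = 0.229, edgeR). The difference was much smaller without 1 library, and the log2 fold change of Arrdc3 was -0.36 without non-Tg replicate 13, -0.34 without the 4 libraries with high immediate early gene scores and -0.23 at 15 months alone. Beta-arrestin 1 (Arrb1) had 153 ± 25.4 and 119 ± 18.2 CPM (adjusted p = 0.35, edgeR).

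The other 4 lists had 0 called genes, although some of their genes were called in alternative fits. For the cyclic AMP enzymes, 22 of 25 tested, the smallest adjusted p was 0.0568 for Adcy1, an adenylyl cyclase of neurons, at 28.8 ± 13.9 CPM in non-Tg and 9.42 ± 5.17 CPM in PS2APP (log2 fold change -1.53 ± 0.39, edgeR). Adcy1 was called in 9 of 30 alternatives, among them DESeq2 (adjusted p = 0.0049) and limma-voom (adjusted p = 0.0208), and its estimate was -0.55 ± 0.56 (adjusted p = 1.0, edgeR) with the neuron marker score as a covariate, which does not overlap between the groups. Pde4b, a phosphodiesterase of immune cells, stood at 82.5 ± 27.0 and 50.1 ± 10.8 CPM (log2 fold change -0.71 ± 0.19, adjusted p = 0.0778, edgeR) and was called in 5 alternatives. Of 13 G protein alpha subunits, all tested, 11 had a negative estimate and the median was -0.27, where 7375 of all 13994 genes tested had a negative estimate and the median was -0.02. Gnas, which couples receptors to adenylyl cyclase, stood at 533 ± 144 CPM in non-Tg and 815 ± 161 in PS2APP (log2 fold change 0.61 ± 0.18, adjusted p = 0.115, edgeR), and was called in 4 alternatives. Gnao1, the abundant alpha subunit of neurons, stood at 30.5 ± 7.42 and 16.3 ± 7.82 CPM (adjusted p = 0.181, edgeR). Gng12, a gamma subunit called in 3 alternatives, was the nearest to the threshold among 10 tested beta and gamma subunits, at 84.7 ± 18.1 and 134 ± 40.3 CPM (log2 fold change 0.63 ± 0.18, adjusted p = 0.093, edgeR), and Gnb1, a beta subunit, stood at 326 ± 44.4 and 274 ± 47.0 CPM (adjusted p = 0.534, edgeR). Of 11 tested regulators of G protein signalling 9 had a negative estimate, with a median of -0.42. Rgs2 stood at 1152 ± 824 and 664 ± 222 CPM and Rgs1 at 133 ± 188 and 47.0 ± 36.1 CPM (adjusted p = 0.24 and 0.401, edgeR). Rgs1 ranged from 7.16 to 433 CPM within non-Tg, where 2 libraries had high immediate early gene scores. Its log2 fold change was -1.46 with all libraries and 0.94 without the 4 such libraries (adjusted p = 0.219, edgeR), and 0.37 with that score as a covariate.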

How the data were processed

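RNA of sorted cells was sequenced in 15 samples, and each has a table of 36528 gene identifiers. Per the file headers, the authors deposited 2 columns, the count of reads aligning uniquely to each gene model, and nRPKM, an RPKM adjusted by a size factor per sample. The submitters' processing notes name GSNAP as the aligner and GRCm38 as the genome build; for version, annotation and strand setting the sources used here give nothing. Symbols and positions came from a RefSeq table (GRCm38.p6), which matched 31049 identifiers holding 97.2% to 98.2% of each sample's reads, and overlaps of exons from GENCODE for the same build.

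Groups came from the sample labels, and replicate numbers are the sample numbers in the titles. All 51 replicate pairs differed by more than counting noise (chi-square per degree of freedom from 9.98 to 67.5). Counts were tested in R 4.3.3 with edgeR 4.0.16 (filterByExpr, TMM scaling, genotype and age as terms, quasi-likelihood test), adjusted over 13994 genes at 0.05 and checked on simulated counts. Standard errors are the log2 fold change over the square root of the F statistic. DESeq2 1.42.0 and limma 3.58.1 served as alternatives, besides other scalings and filters, marker scores as covariates, each age alone and leaving out each library. Levels are compared between genes only in nRPKM, and CPM uses TMM scaling.

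The members and lists were chosen with earlier results of these data known. Called members aside, the text names Gpr34, Gpr84, Gpr183, Adgrg1, the 12 highest in non-Tg, the 12 with the smallest genotype p and members whose groups do not overlap; of each pathway list it names called genes and up to 2 others with the smallest p. Other members stand as values of their role group. Results of some genes are not reported here.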

Additional observations from a re-analysis of the deposited data

Results flagged for a closer look

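Of 36 groups of libraries examined for a single library far from the rest, 2 held one, and chance gives about 1 in 20 groups. Adgrl1 was low in PS2APP replicate 8, at 2.21 on the log2 CPM scale (4.28 CPM), where the next PS2APP library was at 3.61 and the others ran from 11.9 to 32.2 CPM. The neuron marker score was also lowest in that library, at 1.61, and whether Adgrl1 followed that score within a group was not tested. Adgra2 was high in non-Tg replicate 11, at 5.41 on the log2 CPM scale (42.1 CPM), where the other 5 non-Tg libraries ran from 1.302 to 1.71 CPM.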

How the results depend on the processing

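Of the 18 members taken for their level or their p, 10 kept their direction and stayed uncalled under the 30 alternatives, 6 changed sign in at least 1, and Adgrl1 and Gpr65 were called in some. The number of members called for genotype, 0 as reported, was 3 with no count filter, 1 with DESeq2, 1 with limma-voom and 1 at 14 months alone, and ran from 0 to 1 when 1 library was left out, with the 1 (Gpr65) coming without non-Tg replicate 11. It stayed at 0 under the other alternatives. Over all genes the count of 165 became 648 with no count filter, 390 with DESeq2, 50 at 14 months alone, 65 at 15 months alone, 81 without the 3 libraries low in Xist and 17 with the neuron marker score as covariate. Log2 fold changes that changed sign were these. Gpr34 was 0.0090 with no scaling, 0.12 with limma-voom, 0.0880 without the 4 libraries with high immediate early gene scores, 0.0343 with the neuron marker score as covariate, 0.0011 with no age term and 0.0311 at 15 months alone, and ran from -0.12 to 0.0516 when 1 library was left out. Gpr84 was 0.24 at 14 months alone and ran from -0.24 to 0.0369 when 1 library was left out. Gpr160 was -0.0645 with the neuron score. Gpr146 was -0.19 with the neuron score, -0.0594 without those 4 libraries and -0.0297 without the 3 libraries low in Xist. Gpr108 was 0.44 at 14 months alone. Adgra2 was 0.42 with limma-voom, 0.19 at 14 months alone and from -1.54 to 0.66 when 1 library was left out, the 0.66 without non-Tg replicate 11. Gnao1 was 0.0182 with the neuron score, and Rgs1 was 0.94 without the 4 libraries and 0.37 with the immediate early gene score as covariate. Ch25h was called in 27 and Arrdc4 in 25 of 30 alternatives. Of the pathway genes not called as reported, Adcy1 was called in 9, Pde4b and Tgm2 in 5 each, Gnas in 4, Gng12 in 3 and Arrdc3, Rgs1 and Rgs2 in 1 each. For Adcy1 these included leaving out PS2APP replicate 4 or 7 or non-Tg replicate 5 or 11, for Pde4b PS2APP replicate 14 or non-Tg replicate 11, for Tgm2 PS2APP replicate 4 or non-Tg replicate 11 and for Gng12 PS2APP replicate 4. The cause of these changes was not tested. No paired analysis was possible because the groups share no replicate number. Depth limits the 24 members under the count filter, whose levels rest on 30 to 139 reads over all libraries.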
